A study of Mus musculus with 6 samples.

Results

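The myeloid C-type lectin receptors followed here are 10 genes, Clec4d, Clec4e, Clec4n, Clec7a, Clec5a, Clec12a, Clec4a1, Clec4a2, Clec4a3 and Clec9a, taken by their symbols from a table of 14097 genes measured in colonic macrophages (MΦs). All 10 were in the table, and 9 of them passed the filter of 50 normalized counts in at least 1 library, which 11067 genes of the table passed. Clec9a did not pass it. The genes were chosen as a family and not by their values, although earlier results of these data were known when the family was chosen.

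P3/P4 MΦs of the colonic lamina propria, that is leukocytes (CD45+) positive for CD11b, CD64 and MHCII, intermediate for CD11c and negative for CD103 and Ly6C, were sorted from untreated 129SvEv mice, and their polyadenylated RNA was sequenced. There were 6 libraries, 1 of Il10rb-/- and 1 of Il10rb+/- mice at each of 1, 3 and 12 weeks of age. Both genotypes carry the targeted allele of Il10rb, which encodes the β chain of the IL10 receptor, and differ in whether a working copy is left. The deletion is in the germline, so every cell of an Il10rb-/- mouse lacked the chain, which also serves receptors of other cytokines such as IL22. A library at 3 or 12 weeks came from 1 mouse, whereas a library at 1 week pooled colons of 3 to 5 mice by the labels. The question was how the transcriptome of these MΦs differed between the genotypes before, at and after the age at which colitis begins.

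C-type lectin receptors are surface proteins through which myeloid cells sense sugars and lipids of fungi and bacteria and products of dying cells. Dectin-1 signals through its own tail, and Mincle, MCL, Dectin-2 and MDL-1 signal through adaptors with an immunoreceptor tyrosine-based activation motif (ITAM), FcRγ or DAP12. These signals pass through the kinase Syk and the Card9-Bcl10-Malt1 complex to cytokine genes. Other members of the family, such as MICL and DCIR, carry an inhibitory motif (ITIM) that recruits phosphatases. In the gut the family is known for sensing commensal fungi.

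The values are read counts per gene, divided by the authors by a size factor for each library, and are called normalized counts. The 6 libraries held between 6700337 and 40754971 reads on the listed genes, the fewest in 3-week Il10rb+/- and the most in 12-week Il10rb+/- MΦs. Il10rb was at 939 to 1221 normalized counts in the Il10rb+/- libraries and at 12.0 to 27.4 in the Il10rb-/- libraries, so the genotype labels held in all 6. The 12 markers of resident MΦs all had reads in every library, and their summed level was 109547 normalized counts in 12-week Il10rb-/- MΦs against 242744 to 308565 in the other libraries. Ly6c2, which encodes a protein the gate selects against, was at 2611 normalized counts in 12-week Il10rb-/- and at 143 in 12-week Il10rb+/- MΦs. With 1 library per genotype and age, a ratio at a single age has no replicate check and no p-value, and its 95% interval (exact, Clopper-Pearson) covers counting error only.

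All 10 genes lie on chromosome 6 of GRCm38, the build of the files (mm10). Clec4a1, Clec4a3, Clec4a2, Clec4n, Clec4d and Clec4e fall within 368 kb (122921848 to 123289870), and Clec12a, Clec9a and Clec7a fall within 130 kb (129342691 to 129472779). The stretches are 6.05 Mb apart, and Clec5a lies on its own at 40574894 to 40585821. Clec4d and Clec4e, whose products act together at the cell surface, are next to each other on opposite strands. Start regions are shown for Clec4e, Clec4d and Clec7a, which were higher in Il10rb-/- MΦs at every age, and for Clec4a3, which was not. Clec12a, also higher at every age, is not shown. For each gene shown, the 250 bases before the RefSeq start site (GRCm38.p6) are given. They are written 5′ to 3′ on the strand of the gene, from chr6:123289872-123290121 (minus strand), chr6:123261857-123262106 (plus strand), chr6:129472780-129473029 (minus strand) and chr6:122952265-122952514 (plus strand), and none of these bases is exonic. Capitals mark matches on either strand to the core of the myeloid factor PU.1 (GAGGAA) and to a C/EBP motif (TTNNGNAA). Clec4a3 holds neither, but Clec5a, Clec4a1 and Clec4a2, which were not higher at every age either, hold matches to at least 1 of them. The sequences shown are thus no contrast by ratio.
Clec4e: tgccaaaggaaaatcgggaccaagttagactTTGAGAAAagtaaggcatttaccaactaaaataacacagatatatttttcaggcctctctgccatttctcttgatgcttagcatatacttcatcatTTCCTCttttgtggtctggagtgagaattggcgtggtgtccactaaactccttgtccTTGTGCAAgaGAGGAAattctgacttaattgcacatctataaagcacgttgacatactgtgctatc
Clec4d: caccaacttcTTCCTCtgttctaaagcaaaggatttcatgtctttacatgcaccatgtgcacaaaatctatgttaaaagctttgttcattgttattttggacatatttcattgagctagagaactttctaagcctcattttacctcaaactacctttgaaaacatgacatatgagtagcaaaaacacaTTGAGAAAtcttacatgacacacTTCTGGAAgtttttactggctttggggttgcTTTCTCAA
Clec7a: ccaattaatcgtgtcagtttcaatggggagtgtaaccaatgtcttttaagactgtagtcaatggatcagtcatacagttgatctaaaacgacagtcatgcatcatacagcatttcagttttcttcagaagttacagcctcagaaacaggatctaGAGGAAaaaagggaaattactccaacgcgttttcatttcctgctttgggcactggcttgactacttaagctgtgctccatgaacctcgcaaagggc
Clec4a3: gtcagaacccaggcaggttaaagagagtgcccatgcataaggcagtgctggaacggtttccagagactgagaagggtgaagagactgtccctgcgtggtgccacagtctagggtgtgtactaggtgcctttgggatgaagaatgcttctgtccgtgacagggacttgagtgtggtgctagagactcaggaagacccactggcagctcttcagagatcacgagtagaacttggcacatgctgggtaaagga

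RefSeq windows were matched for 9 of the 10 genes, all but Clec4n. The PU.1 core was in 6 of the 9 windows (Clec4d, Clec4e, Clec7a, Clec5a, Clec12a and Clec4a1) and in 23.3% of 32851 windows of the same length over all genes. A C/EBP motif was in 5 of the 9 (Clec4d, Clec4e, Clec5a, Clec12a and Clec4a2) and in 36.8% of all windows. In Clec4e a C/EBP match at 66 to 59 bases before the start was followed by a PU.1 core at 56 to 51 bases before it. Clec4d held 3 C/EBP matches within its last 62 bases, and Clec7a held a single PU.1 core at 96 to 91 bases before the start. An AP-1 motif (TGANTCA) was found only in the Clec12a window and in 6.75% of all windows, and a STAT motif (TTCNNNGAA) only in the Clec4a2 window and in 7.02% of all. An IRF motif (GAAANNGAA) and an NF-kappaB motif were in none of the 9 windows and in 7.13% and 7.25% of all. Part or all of the window is exonic in the GENCODE annotation for Clec12a, Clec9a, Clec4a2 and Clec5a. The RefSeq start site lies 7553 bases from the GENCODE start of the gene for Clec12a and 16262 bases from it for Clec4a2. The matches counted for these genes are therefore not before the GENCODE start. These matches describe the letters of each window and show no binding.

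Clec4e, Clec4d, Clec7a and Clec12a were higher in Il10rb-/- than in Il10rb+/- MΦs at 1, 3 and 12 weeks, with every counting interval above 0. This held for 4 of the 9 genes past the filter and for 5.69% of all genes past it, and direction alone held for the same 4 and for 17.4% of all genes. The other 5 genes past the filter had ratios on both sides of 0 over the ages. In sorted bulk RNA, a change in which cells pass the gate and a change of RNA per cell cannot be told apart.

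Clec4e encodes Mincle, an FcRγ-coupled receptor for mycobacterial glycolipids and for a protein released by dying cells. In Il10rb+/- MΦs it was at 847, 2847 and 9388 normalized counts at 1, 3 and 12 weeks. In Il10rb-/- MΦs it was at 3005, 6463 and 57621 normalized counts. Clec4e was thus higher at each later age in either genotype, and the 12-week Il10rb-/- library stood far above the other 5, while the ranges of the genotypes overlapped across ages. The Il10rb-/- over Il10rb+/- ratio was 3.55-fold at 1 week (log2 1.83, interval 1.71 to 1.94), 2.27-fold at 3 weeks (log2 1.18, interval 1.09 to 1.27) and 6.14-fold at 12 weeks (log2 2.62, interval 2.60 to 2.64).

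Clec4d encodes MCL, which pairs with Mincle and is needed for its surface expression. It was at 134, 282 and 1368 normalized counts in Il10rb+/- MΦs and at 445, 461 and 3039 in Il10rb-/- MΦs. The levels of Clec4d were near each other in Il10rb-/- MΦs at 1 and 3 weeks and several-fold higher at 12 weeks in both genotypes, and the genotype ranges overlapped across ages. The ratio was 3.32-fold at 1 week, 1.63-fold at 3 weeks and 2.22-fold at 12 weeks. At 1 and 3 weeks the values of Clec4d rest on 116 to 524 reads, and the log2 intervals were 1.43 to 2.04 and 0.41 to 1.01.

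Clec7a encodes Dectin-1, the receptor for fungal β-glucan. It was at 8249, 9946 and 12068 normalized counts in Il10rb+/- MΦs and at 16520, 16550 and 54478 in Il10rb-/- MΦs. Every Il10rb-/- library was above every Il10rb+/- library for Clec7a, and no other gene of the 9 had this separation. Over all genes past the filter, 2.86% had all Il10rb-/- libraries above all Il10rb+/- libraries and 2.78% had them all below, which none of the 9 did. The Clec7a ratio was 2.0-fold at 1 week (log2 interval 0.96 to 1.04), 1.66-fold at 3 weeks (0.69 to 0.78) and 4.51-fold at 12 weeks (2.15 to 2.19). GENCODE types Clec7a as a polymorphic pseudogene. This is a label of the annotation, and read counts per gene do not show whether the product is intact or disrupted.

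Clec12a encodes MICL, an ITIM-bearing inhibitory receptor for uric acid crystals. It was at 309, 917 and 1496 normalized counts in Il10rb+/- MΦs and at 1254, 1667 and 3963 in Il10rb-/- MΦs. As with Clec4e, its levels stood higher at each later age in both genotypes, and the 1-week Il10rb-/- level lay between the 3-week and 12-week Il10rb+/- levels. The ratio of Clec12a was 4.05-fold at 1 week, the largest of the 9 genes at that age, with 1.82-fold at 3 weeks and 2.65-fold at 12 weeks.

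**Figure D1:**
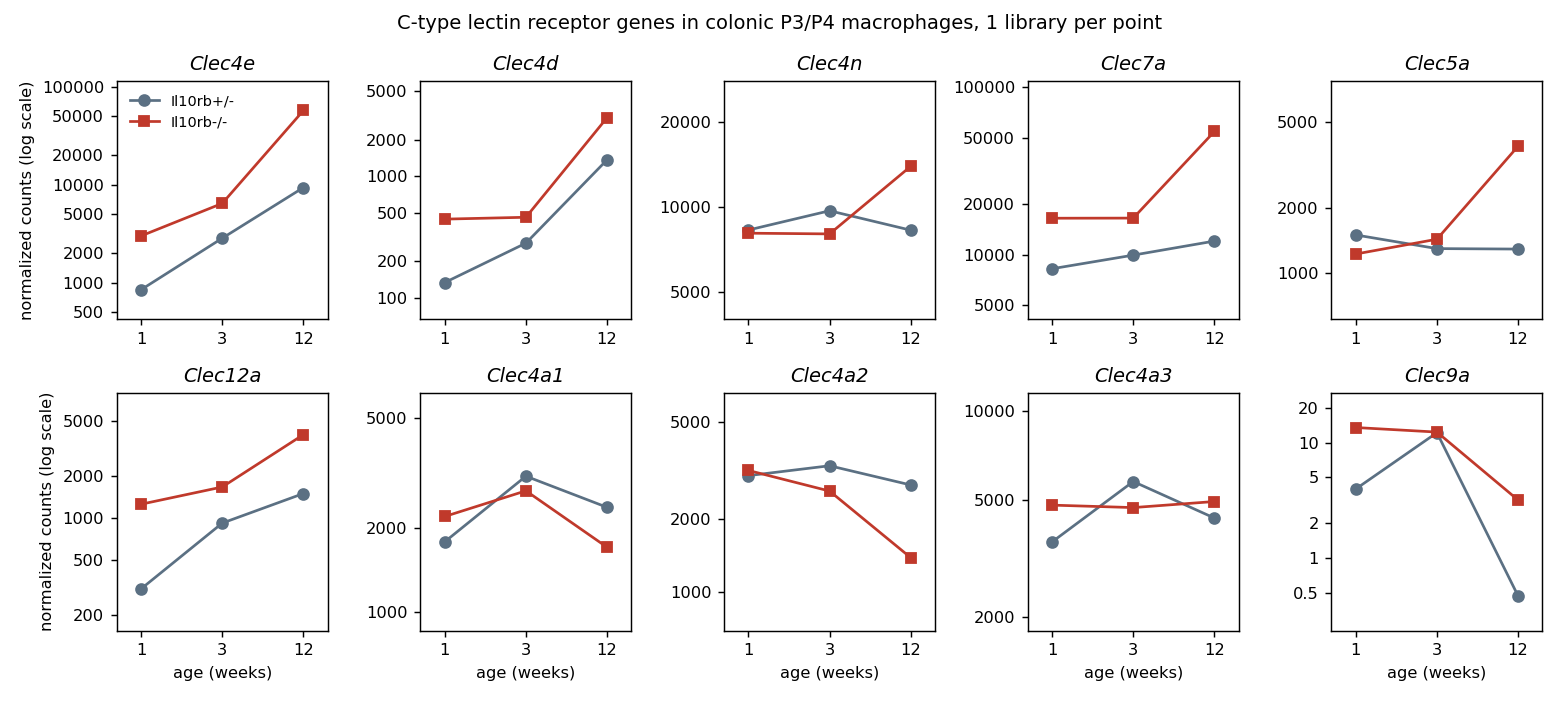
Normalized counts (log scale, a separate range for each panel) of the 10 receptor genes at 1, 3 and 12 weeks, with 1 library per point, grey circles for Il10rb+/- and red squares for Il10rb-/- MΦs, and lines that join the libraries of a genotype. The red line lies above the grey at every age for Clec4e, Clec4d, Clec7a and Clec12a, the lines cross for Clec4n, Clec5a, Clec4a1, Clec4a2 and Clec4a3, and the Clec9a points rest on 1 to 14 reads.

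Clec4n and Clec5a had their largest ratio at 12 weeks and lay near or below 0 on the log2 scale at 1 week. Clec4n encodes Dectin-2, an FcRγ-coupled receptor for fungal mannans. Its level was 8308, 9717 and 8297 normalized counts in Il10rb+/- MΦs and 8097, 8049 and 13952 in Il10rb-/- MΦs. The log2 ratio of Clec4n was −0.04 at 1 week, with an interval of −0.09 to 0.01, then −0.27 at 3 weeks and 0.75 at 12 weeks. Clec5a encodes MDL-1, a DAP12-coupled receptor. It was at 1497, 1295 and 1288 normalized counts in Il10rb+/- MΦs and at 1222, 1431 and 3851 in Il10rb-/- MΦs. The 12-week Il10rb-/- library was thus the only one apart for Clec5a, at 2.99-fold over its Il10rb+/- counterpart, just under the 3-fold threshold that the study used.

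Among the DCIR family, Clec4a2 was lower in Il10rb-/- MΦs at 3 and 12 weeks, while Clec4a1 and Clec4a3 differed by at most 1.39-fold at any age. Clec4a2 encodes DCIR1, an ITIM-bearing DCIR. It was at 3007, 3302 and 2752 normalized counts in Il10rb+/- MΦs and at 3159, 2598 and 1380 in Il10rb-/- MΦs. The 12-week Il10rb-/- level of Clec4a2 was the lowest of the 6, 1.99-fold below its counterpart (log2 −1.0, interval −1.07 to −0.92), and the 1-week ratio was 1.05-fold with an interval that held 0. Clec4a1 was at 1786, 3078 and 2377 normalized counts in Il10rb+/- and at 2203, 2727 and 1707 in Il10rb-/- MΦs, with log2 ratios of 0.30, −0.17 and −0.48. Clec4a3 was at 3603, 5772 and 4341 in Il10rb+/- and at 4802, 4711 and 4939 in Il10rb-/- MΦs, with log2 ratios of 0.41, −0.29 and 0.19. The direction of Clec4a3 at 12 weeks flipped to −0.03 when libraries were scaled by total reads.

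Clec9a encodes DNGR-1, a receptor for actin of dead cells that marks cross-presenting dendritic cells. It had 1 to 14 reads in a library, or 0.473 to 13.5 normalized counts, and its interval of the genotype ratio held 0 at each age, so no genotype difference was detectable at this depth. Its exons share 184 bases with those of Clec1b on the same strand. The markers of conventional dendritic cells summed to 5144 to 17197 normalized counts in 5 libraries and to 42928 in 12-week Il10rb-/- MΦs, of which Ccr7 alone made up 38707. Xcr1, which marks the same cells as Clec9a, was at 21.9 to 358 normalized counts.

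**Figure D2:**
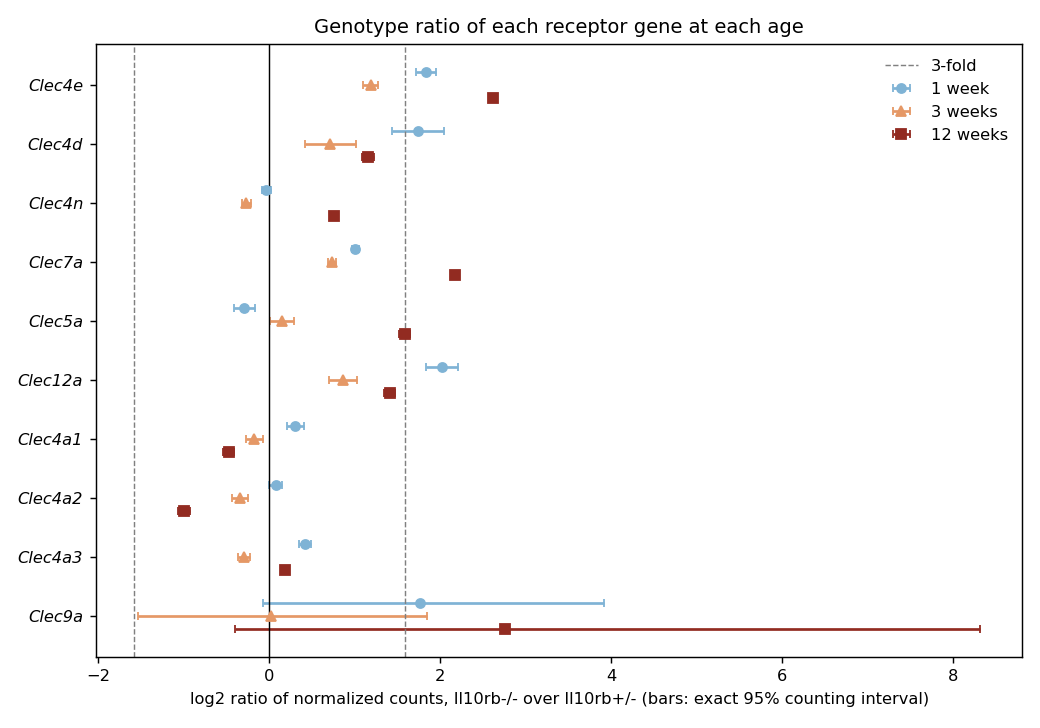
Log2 ratio of normalized counts, Il10rb-/- over Il10rb+/-, for each receptor gene at 1 week (circles), 3 weeks (triangles) and 12 weeks (squares), with exact 95% counting intervals as bars, the solid line at 0 and dashed lines at 3-fold. Clec4e, Clec4d, Clec7a and Clec12a lie to the right of 0 at all ages with their smallest ratio at 3 weeks, Clec4a2 moves from 0.07 at 1 week to −1.0 at 12 weeks, and the wide bars of Clec9a reflect its few reads.

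Over 3-fold at 1 week were Clec12a, Clec4e and Clec4d, all higher in Il10rb-/- MΦs. This was 3 of 9 genes, against 2.75% of all genes in that direction and 0.75% in the other. None of the 9 was over 3-fold in either direction at 3 weeks, when 1.34% of all genes passed it upwards and 0.642% downwards. Clec4e and Clec7a were over 3-fold higher at 12 weeks, 2 of 9 genes against 4.03% of all, and none was over 3-fold lower against 9.99% of all. The median log2 ratio of the 9 genes was 0.41, 0.14 and 1.15 at 1, 3 and 12 weeks, and that of all genes past the filter was −0.04, 0.02 and 0.04.

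A test with replicates was possible across ages alone, by fitting genotype and age to all 6 libraries (limma on log2 of the normalized count plus 1). Its error measures how far the genotype difference varied from age to age. No gene of the 11067 passed an adjusted p of 0.05 (0% called), 853 had an unadjusted p under 0.05, and the smallest adjusted p of all genes was 0.0616. Of the receptors, Clec4e had a log2 difference of 1.88 (SE 0.29, adjusted p = 0.515) in the limma fit, with a 95% interval of 1.15 to 2.60. The limma log2 differences were 1.43 for Clec12a (interval 0.81 to 2.04, adjusted p = 0.561), 1.30 for Clec7a (0.51 to 2.10, adjusted p = 0.627) and 1.19 for Clec4d (0.61 to 1.78, adjusted p = 0.561), each higher in 3 of 3 ages. These 4 of 9 receptors were higher at an unadjusted p under 0.05, against 4.4% of all genes, and none of them passed the adjusted threshold. Intervals of the other 5 held 0, from Clec4a2 at −0.42 (interval −1.01 to 0.17) to Clec5a at 0.48 (interval −0.44 to 1.40).

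The call turned on either library of 12 weeks. Without the 12-week Il10rb-/- library, Clec4e (log2 1.5, limma adjusted p = 0.00345) and Clec12a (log2 1.44, adjusted p = 0.015) were called by limma, and 0.569% of all genes were. Without the 12-week Il10rb+/- library, Clec4e (limma adjusted p = 0.0031), Clec12a (adjusted p = 0.0114) and Clec4d (log2 1.22, adjusted p = 0.0396) were called, against 0.669% of all genes. Both of these fits take the genotype difference from 1 and 3 weeks alone. Clec7a was not called in either, with a log2 difference of 0.87 and limma adjusted p values of 0.108 and 0.121.

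Clec4d and Clec4e had the largest limma differences of the 9 receptors between 3 and 12 weeks. From 3 to 12 weeks Clec4d differed by 2.50 on the log2 scale (interval 1.78 to 3.21, limma adjusted p = 0.0854) and Clec4e by 2.44 (interval 1.55 to 3.33, adjusted p = 0.11). Neither passed the threshold, and 3 genes (0.0271%) did, while 11.3% of all genes were higher at 12 weeks at an unadjusted p under 0.05, as were Clec4d, Clec4e, Clec7a and Clec12a. From 1 to 3 weeks Clec4e differed by 1.43 (limma adjusted p = 0.324) and Clec12a by 0.99 (adjusted p = 0.424), and 2 genes of all (0.0181%) passed. Within Il10rb+/- MΦs alone, Clec4e was 11.1-fold and Clec4d 10.2-fold higher at 12 weeks than at 1 week, and Clec7a 1.46-fold. Within Il10rb-/- MΦs the same steps were 19.2-fold, 6.83-fold and 3.30-fold.

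The age calls too turned on single libraries. A fit without either 12-week library leaves 1 mouse of 1 genotype at that age. Its step from 3 to 12 weeks thus includes any genotype difference special to 12 weeks, and the calls below cannot separate it from age. For Clec5a this step was 1.54 on the log2 scale without the 12-week Il10rb+/- library and −0.12 without the 12-week Il10rb-/- library. In Il10rb+/- MΦs Clec5a was at 1295 normalized counts at 3 weeks and 1288 at 12 weeks. For 12 against 3 weeks, Clec4d was called without the 1-week Il10rb+/- library (0.642% of all genes called), and Clec4d and Clec4e without the 1-week Il10rb-/- (0.967%) or the 12-week Il10rb-/- library (5.94%). Without the 12-week Il10rb+/- library 7 of the 9 receptors were called, against 28.2% of all genes, with Clec4a1 and Clec4a2 lower at 12 weeks and Clec4d, Clec4e, Clec7a, Clec5a and Clec12a higher. For 3 against 1 week, Clec4e and Clec12a were called without the 12-week Il10rb+/- (8.93% of all genes) or the 12-week Il10rb-/- library (9.18%).

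Levels of different genes can be compared per kb of exon. Per kb, Clec4n was the highest of the 10 in each Il10rb+/- library (5843 to 6843 normalized counts per kb) and Clec7a in each Il10rb-/- library (6262 to 20651). Clec4e ranked seventh per kb in 1-week Il10rb+/- MΦs, at 171, and second in 12-week Il10rb-/- MΦs, at 11605. Clec4a2 ranked ninth in 12-week Il10rb-/- MΦs, at 472 per kb, below its place in the other 5 libraries. Neighbours in this order that lie close together, such as Clec4a1 and Clec4a2 at 1146 and 1028 per kb in 1-week Il10rb+/- MΦs, cannot be ranked without replicates. The same holds for Clec7a and Clec4n in Il10rb-/- MΦs at 1 week (6262 and 5702 per kb) and at 3 weeks (6274 and 5669).

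As a description over the 6 libraries, which share ages and genotypes, the genes whose log2 levels were most like Clec4e were Smox, a spermine oxidase (Pearson r 0.998), Taldo1, an enzyme of the pentose phosphate pathway (0.997), and Bhlhe40, a transcription factor (0.997). For Clec7a they were Haus8 (0.999), Gpsm3 (0.996) and Aup1 (0.996), and for Clec4a2 they were Adck5, Dync2h1 and C030034L19Rik (0.996 each). Among the receptors, r was 0.96 between Clec4e and Clec4d, 0.95 between Clec4e and Clec12a and −0.97 between Clec5a and Clec4a2. No p was computed for these values, since each gene was picked as the closest of all.

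Genes of the pathway below the receptors had smaller median ratios at 12 weeks than the receptors, and apart from its output genes only 1 was over 3-fold at that age. The adaptor FcRγ (Fcer1g) was at 8938, 9970 and 11137 normalized counts in Il10rb+/- and at 11200, 10212 and 15481 in Il10rb-/- MΦs. DAP12 (Tyrobp) was at 11617, 8824 and 10520 and at 12408, 8705 and 15305. These adaptors differed by at most 1.45-fold between genotypes at any age, and none of the 3 adaptors, Hcst included, was over 3-fold at any age. Of 18 genes of the Syk-Card9 pathway past the filter, 16 were higher in 12-week Il10rb-/- MΦs, against 52.0% of all genes, but only Malt1 was over 3-fold higher, against 4.03% of all. At 1 week 5 of the 18 were higher and 13 lower (median log2 −0.14, all genes −0.04). At 3 weeks 14 were higher and 4 lower (median log2 0.20, all genes 0.02). The share of all genes by direction alone was not computed at 1 and 3 weeks. Malt1, the protease of the Card9 complex, was at 2753, 1915 and 5367 normalized counts in Il10rb+/- and at 3851, 5148 and 21775 in Il10rb-/- MΦs. Syk was at 6532 and 12985 and Card9 at 680 and 951 at 12 weeks. In the limma fit 2 of the 18, Malt1 and the Src family kinase Fgr, were higher at an unadjusted p under 0.05, against 4.4% of all genes, and none was called (adjusted p = 0.627 for both).

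The 9 inhibitory phosphatases and ligases past the filter had no member over 3-fold at any age, with median log2 ratios of −0.22, 0.02 and 0.12. Ptpn6, which encodes the phosphatase SHP-1, was at 4991 and 7498 normalized counts at 12 weeks, and Inpp5d, which encodes SHIP, at 5293 and 4029. None of these genes had an unadjusted p under 0.05 in the limma fit.

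Of the output genes of Syk-Card9 signalling, 14 of 15 passed the filter, and in 12-week Il10rb-/- MΦs 5 of them exceeded their Il10rb+/- level by over 3-fold (4.03% of all genes) and 1 lay as far below it (9.99% of all). Il23a, a subunit of IL23, was at 77.3, 110 and 1041 normalized counts in Il10rb+/- and at 270, 616 and 10458 in Il10rb-/- MΦs. It was the output gene with the smallest limma adjusted p (0.372, log2 difference 2.53). Il1b was at 159466 and 556585 and Ptgs2, which encodes cyclooxygenase 2, at 37245 and 251994 at 12 weeks. Il10 went the other way, at 10488 and 2339, and Tnf and Cxcl1 were also lower in Il10rb-/- MΦs at that age. These genes answer many signals, and 6 of the 14 were higher (4.4% of all genes) and 1 lower (3.31% of all) at an unadjusted limma p under 0.05 with none called.

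**Figure D3:**
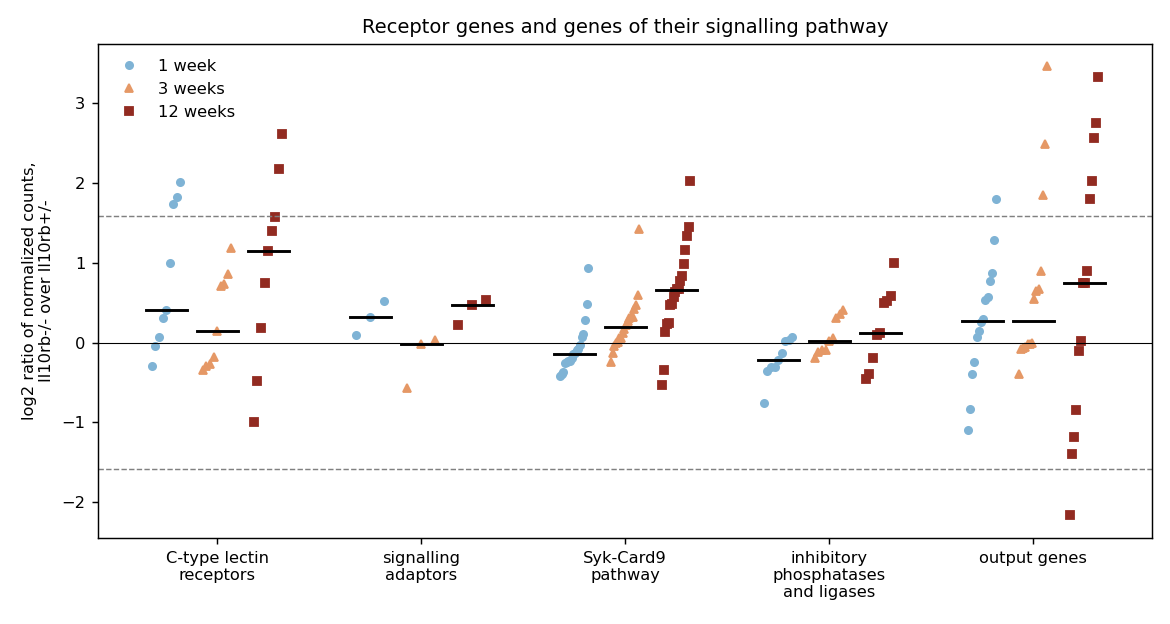
Log2 ratio of normalized counts, Il10rb-/- over Il10rb+/-, of each gene past the filter in the receptor family and in 4 lists of its pathway, at 1 week (circles), 3 weeks (triangles) and 12 weeks (squares), with black bars at the medians and dashed lines at 3-fold. Medians at 12 weeks are 1.15 for the receptors, 0.48 for the adaptors, 0.66 for the Syk-Card9 pathway, 0.12 for the inhibitory genes and 0.75 for the output genes.

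Other C-type lectin receptors in the table, 36 genes of which 29 passed the filter, had a median log2 ratio of −1.46 at 12 weeks, against 1.15 for the 9 receptors. Of the 29, 12 were lower and 5 higher by over 3-fold at that age, against 9.99% and 4.03% of all genes. Mrc1, the mannose receptor, was at 14262, 19977 and 12185 normalized counts in Il10rb+/- and at 8578, 14106 and 618 in Il10rb-/- MΦs. Mgl2, a galactose-type lectin, was at 8826 and 816 at 12 weeks. Cd209b and Cd209f, of the SIGN family, had 706 and 861 reads in 12-week Il10rb+/- MΦs and 0 reads in 12-week Il10rb-/- MΦs, at least 175-fold and 213-fold lower by a floor of 3 reads in that library. At 12 weeks 19 of the 29 were lower in Il10rb-/- MΦs, against 47.9% of all genes, and 7 of the 9 receptors were higher, against 52.0%. At 1 and 3 weeks the median of the 29 was 0.43 and −0.14.

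Olr1, the oxidized LDL receptor LOX-1 and the right-hand neighbour of Clec7a at 12465 bases, was at 102, 253 and 731 normalized counts in Il10rb+/- and at 816, 696 and 3618 in Il10rb-/- MΦs. It was higher in Il10rb-/- MΦs at all ages, as Clec7a was, with a limma log2 difference of 2.25 (adjusted p = 0.496). Klrk1, which encodes NKG2D, was at 28.8, 80.3 and 109 and at 27.0, 404 and 643.

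**Figure D4:**
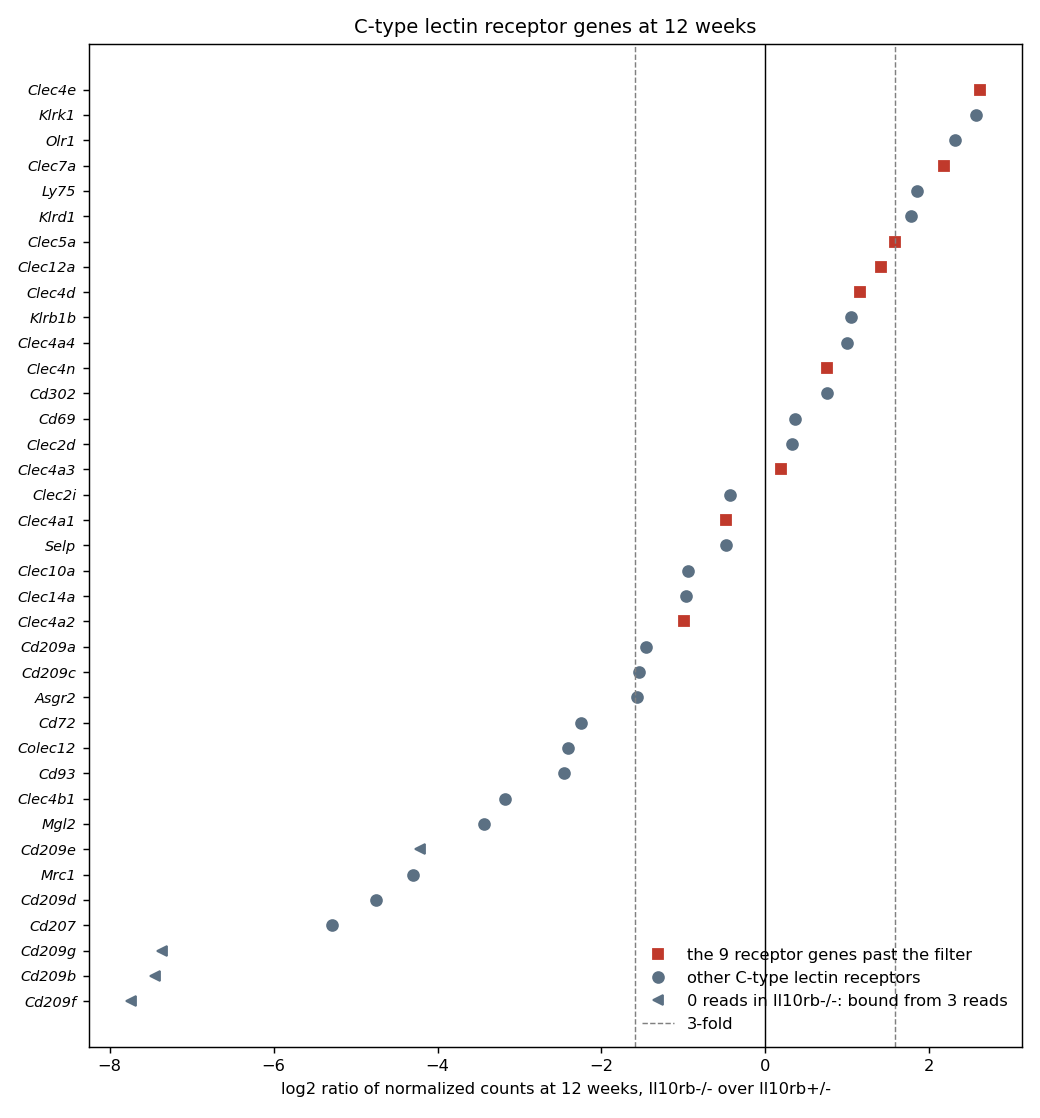
Log2 ratio of normalized counts at 12 weeks, Il10rb-/- over Il10rb+/-, for the 9 receptor genes past the filter (red squares) and other C-type lectin receptors past it (grey circles, 1 gene not drawn), ordered by ratio, with dashed lines at 3-fold and left-pointing triangles for genes with 0 reads in the Il10rb-/- library, drawn at a bound from 3 reads. Clec4e has the highest ratio at 2.62, and Mrc1 (−4.30), Mgl2 (−3.43) and the Cd209 genes lie at the left.

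Summed markers of neutrophils, monocytes and epithelial cells were higher in 12-week Il10rb-/- than in 12-week Il10rb+/- MΦs, and those of eosinophils were lower. The 11 neutrophil markers summed to 2009 to 4361 normalized counts in 5 libraries and to 14029 in 12-week Il10rb-/- MΦs, where S100a8 and S100a9 were at 1673 and 2906 against 12.8 and 33.6 in the 12-week Il10rb+/- library. Ly6g, which defines neutrophils, had 0 reads in 4 libraries and was at 2.43 in 3-week Il10rb+/- and at 15.9 in 12-week Il10rb-/- MΦs. The 10 monocyte markers summed to 9931, 44558 and 31327 normalized counts in Il10rb+/- and to 17130, 37884 and 49956 in Il10rb-/- MΦs. The 10 epithelial markers summed to 183 to 2290, and 5 eosinophil markers, 4 of them in the table, to 60.5 to 233. At 12 weeks the epithelial sum was 984 in Il10rb+/- and 2290 in Il10rb-/- MΦs, and the eosinophil sum was 211 and 60.5. At that age 6 of the 10 monocyte markers were over 3-fold higher in Il10rb-/- MΦs (4.03% of all genes). Another 1 was over 3-fold lower (9.99%). Of 9 neutrophil markers past the filter, 7 were over 3-fold higher (4.03%) and none over 3-fold lower. Of 12 resident MΦ markers, 7 were over 3-fold lower (9.99%) and none over 3-fold higher. Medians were 2.50, 2.96 and −1.94 on the log2 scale in that order, against 0.04 for all genes. Myeloid cells of several kinds express Clec4d, Clec4e, Clec5a, Clec7a and Clec12a, and the part of these cells in the ratios was not tested. At 1 week, when Clec4e, Clec4d and Clec12a were over 3-fold higher, the neutrophil sum was 2773 in Il10rb+/- and 2009 in Il10rb-/- MΦs, and S100a8 and S100a9 had between 0 and 2 reads. The monocyte sum was 9931 and 17130 at that age. Of the 10 monocyte markers, 5 were higher and 4 lower in Il10rb-/- MΦs, and 1 had 0 reads in both libraries. The median log2 ratio was 0.19 with that marker and 0.38 over the other 9. Over 3-fold higher were 3 of the 10, against 2.75% of all genes. The epithelial sum was 183 and 990, with all 9 epithelial markers past the filter higher in Il10rb-/- MΦs (median log2 2.02). Of these, 5 were over 3-fold higher, against 2.75% of all genes. For direction alone, the share of all genes at 1 week was not computed. The part of these cells in the 1-week ratios was not tested either.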

How the data were processed

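RNA-seq of P3/P4 MΦs covered 6 libraries, each placed in its group by the labels for genotype and age. The deposited table holds a normalized signal per gene. To make it, the authors mapped the reads to mm10 (TopHat), took gene counts from HTSeq and scaled each library by its DESeq size factor, writing 1 in place of 0. Trim Galore is also named in the submitters' processing notes, and versions and the strand setting are not given in the sources used here. All values but the 1s were whole multiples of a single step per library (0.473 to 2.43 normalized counts per read, tolerance 0.01 reads), so reads were read back. The filter of 50 normalized counts equals 20.5 reads in the shallowest and 106 in the deepest library. The deposited values are scaled and not raw counts, so limma was used. Count models (edgeR and DESeq2), planned as alternatives, were not run on the reads read back.

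Log2 ratios used the deposited values, and their 95% intervals are exact (Clopper-Pearson) and hold counting error alone. Where a library had 0 reads, the fold is a bound from 3 reads. The model for genotype and age, fitted to log2(value + 1) with limma 3.58.1 in R 4.3.3, used a trended prior variance, and p-values were adjusted by Benjamini-Hochberg over 11067 genes. Model, intervals and scaling were tested on simulated data. For the model, the simulated genotype change was the same at every age, so genotype differences that vary with age were not covered. Python 3.11.15 with pandas 2.3.3, scipy 1.17.1 and matplotlib 3.10.9 did the rest. Levels per kb used the exon length of GENCODE M21. Promoter windows are from RefSeq (GRCm38.p6), with the 50 bases after the start left out. Alternatives were TMM and total-read scaling, other pseudocounts, filters and fold thresholds, no trend, no age term, and each library left out.

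The genes and lists were chosen with earlier results of these data known. Named were all members, Il10rb, list genes over 3-fold or else the most abundant (at most 6 per list and age), the 3 genes most correlated with Clec4e, Clec7a and Clec4a2, and neighbours. Fgr, Klrk1, Syk, Card9, Tnf, Cxcl1, the marker genes and the genes with an unadjusted p under 0.05 were named after their values were seen. Of the lists, 1 gene enters their counts and sums but is not reported here by itself.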

Additional observations from a re-analysis of the deposited data

Results flagged for a closer look

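In 4 receptors the sign of the genotype ratio changed with age, with counting intervals on opposite sides of 0. These intervals cover counting error only, and the share of all genes with such a change was not computed. Whether the ratio differed between ages was not tested, since each age has 1 library per genotype. Clec4n had a log2 ratio of −0.27 at 3 weeks and 0.75 at 12 weeks. Clec5a had −0.29 at 1 week, 0.14 at 3 weeks and 1.58 at 12 weeks. Clec4a1 went from 0.30 at 1 week to −0.17 at 3 weeks and −0.48 at 12 weeks. Clec4a3 had 0.41 at 1 week, −0.29 at 3 weeks and 0.19 at 12 weeks.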

How the results depend on the processing

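Scaling by total reads moved the median log2 ratio of all genes at 12 weeks from 0.04 to −0.19, and with it the Clec4a3 log2 ratio at 12 weeks to −0.035 and the receptors' median to 0.93. Without a filter, which adds Clec9a, the median of the receptors was 0.71 at 1 week and 1.28 at 12 weeks. A 2-fold threshold gave 1 receptor at 3 weeks and 5 at 12 weeks. The share of all genes over 2-fold was not computed, so these counts have no background to be read against. The number of genes called by genotype was 1 with a pseudocount of 10 and 1 with no age term, and 0 to 74 with a library left out. For 3 against 1 week it was 8 with a pseudocount of 10, 0 with no trend and 1 to 1016 with a library left out. For 12 against 3 weeks it was 8 with a pseudocount of 10, 0 with no trend, 0 with total reads and 1 to 3124 with a library left out. The cause was not tested. For single receptors, 343 recomputed values kept their side of the threshold or stayed in their interval (among them Clec9a at 3 weeks, from 0.02 to −0.03 with total reads), 21 passed the threshold with a library left out, 8 ratios left their counting interval in the same direction, and 24 changed sign. The sign changes were the Clec4a3 ratio above and limma differences that passed the threshold neither before nor after. With total reads Clec4n was at −0.051 and −0.046 (3 against 1 and 12 against 3 weeks), Clec7a at −0.024 and Clec5a at −0.15 (3 against 1). With a library left out, genotype differences ran from −0.15 to 0.36 for Clec4n, −0.074 to 0.86 for Clec5a, −0.33 to 0.064 for Clec4a1 and −0.053 to 0.30 for Clec4a3. The 3 against 1 week differences ran from −0.21 to 0.42 for Clec4n, −0.29 to 0.56 for Clec7a, −0.57 to 0.59 for Clec5a and −0.44 to 0.30 for Clec4a2, and those of 12 against 3 weeks from −0.17 to 0.73 for Clec4n, −0.12 to 1.54 for Clec5a and −0.47 to 0.13 for Clec4a3. Over these alternatives the limma adjusted p for genotype ran from 0.0031 to 0.986 for Clec4e, 0.0114 to 0.986 for Clec12a, 0.0396 to 0.986 for Clec4d and 0.108 to 0.986 for Clec7a, with log2 differences of 1.5 to 2.22, 1.13 to 1.71, 0.93 to 1.44 and 0.87 to 1.59. The fits with edgeR and DESeq2 were not run on the reads read back. The limma model matches the genotypes within each age through its age term, and the fit with no age term is its unmatched form. Beyond this match by age, no paired analysis was possible because each group has a single library and no replicate numbers.

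Depth limits Clec9a in every library and Clec4d at 1 and 3 weeks. Each library at 3 and 12 weeks is 1 mouse, so litter, mouse and genotype cannot be told apart at a single age.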

Other observations

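Of the nearest protein-coding neighbours outside the 10 receptor genes, 4 passed the filter of 50 normalized counts (Olr1, Necap1, Clec4a4 and Clec4b1, the last 3 given here after their values were seen). Necap1, an endocytosis gene beside Clec4a1, was at 867, 655 and 579 normalized counts in Il10rb+/- and at 664, 747 and 1210 in Il10rb-/- MΦs at 1, 3 and 12 weeks. Clec4b1, the left-hand neighbour of Clec4a2 at 34873 bases, was at 64.4, 499 and 729 in Il10rb+/- and at 95.9, 233 and 80.9 in Il10rb-/- MΦs. Clec4a4, which encodes another DCIR, stayed between 19.5 and 55.4 in all 6 libraries. Neighbouring genes of the same stretch thus lay on opposite sides of 0 at 12 weeks, with log2 ratios of −3.17 for Clec4b1 and 0.99 for Clec4a4.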
